A study of Mus musculus with 7 samples.

Results

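The 9 genes described here encode subunits of phosphoinositide 3-kinase (PI3-kinase), adaptor proteins that recruit it, and a lipid phosphatase acting on its products. They are the catalytic subunit genes Pik3ca, Pik3cb and Pik3cd, the regulatory subunit genes Pik3r1, Pik3r2 and Pik3r3, the adaptor genes Irs1 and Pik3ap1, and the phosphatase gene Inpp4b. The members were chosen by name from 54446 genes in the count table, with results of the same comparison already known, so their differences between groups are given as descriptions with no p-value, and the counts of members called by each tool are printed only beside the share called over all genes. All 9 were among the 16438 genes that passed the filter on low counts. RNA was sequenced from pancreatic spheroids, which are 3-dimensional cultures of pancreatic epithelial cells grown from wild-type C57BL/6J mice. The 3 untreated libraries came from untreated mice, and the 4 post-caerulein libraries from mice after treatment with caerulein, a cholecystokinin analogue used to inflame the pancreas. The caerulein dose, the interval before culture and the age of the mice are not stated in the labels. Both groups were grown in the same medium, which held insulin, EGF, hydrocortisone, cholera toxin and bovine pituitary extract, so that ligands of receptors upstream of PI3-kinase were present in every culture.

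Class IA PI3-kinases are dimers of a catalytic and a regulatory subunit. Receptor tyrosine kinases and phosphorylated adaptor proteins bind the regulatory subunit and bring the enzyme to the plasma membrane, where it phosphorylates the membrane lipid PIP2 to PIP3, the lipid that recruits PDK1 and AKT kinases. SHIP phosphatases turn PIP3 into a bisphosphate that still binds AKT, and INPP4B removes the 4-phosphate from that bisphosphate. In the pancreas this pathway is known for its part in insulin signalling and in acinar-to-ductal metaplasia.

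The sequences before the transcription starts of Pik3ap1, Inpp4b and Pik3r3 are shown because these members had the largest log2 differences between the groups. Each is the 250 bases before the first start listed for the gene, read 5′ to 3′ on the gene's strand from RefSeq (GRCm38.p6), in which all 9 members had an entry. Capitals mark matches, on either strand, to any of 9 short motifs. The motifs were the AP-1 site TGANTCA, the cyclic AMP response element TGACGTCA, the Sp1-type GC box GGGCGG, the E box core CACGTG, the forkhead site of FOXO factors GTAAACA, the STAT site TTCNNNGAA, the NF-Y site CCAAT, the core promoter element TATAAA and the site of ETS factors CCGGAAG. The Pik3ap1 sequence lies at chr19:41385103-41385352 on the minus strand, the Inpp4b sequence at chr8:81342312-81342561 on the plus strand, and the Pik3r3 sequence at chr4:116221166-116221415 on the plus strand.
Pik3ap1: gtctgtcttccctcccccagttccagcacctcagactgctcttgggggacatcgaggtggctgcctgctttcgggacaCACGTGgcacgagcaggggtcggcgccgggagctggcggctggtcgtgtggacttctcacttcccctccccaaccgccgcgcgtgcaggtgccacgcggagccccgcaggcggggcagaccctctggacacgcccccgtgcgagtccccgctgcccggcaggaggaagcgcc
Inpp4b: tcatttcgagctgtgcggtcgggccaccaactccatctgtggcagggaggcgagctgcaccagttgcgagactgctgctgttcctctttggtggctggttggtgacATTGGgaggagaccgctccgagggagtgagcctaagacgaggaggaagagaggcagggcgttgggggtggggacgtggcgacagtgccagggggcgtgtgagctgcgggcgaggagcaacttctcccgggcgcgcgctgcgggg
Pik3r3: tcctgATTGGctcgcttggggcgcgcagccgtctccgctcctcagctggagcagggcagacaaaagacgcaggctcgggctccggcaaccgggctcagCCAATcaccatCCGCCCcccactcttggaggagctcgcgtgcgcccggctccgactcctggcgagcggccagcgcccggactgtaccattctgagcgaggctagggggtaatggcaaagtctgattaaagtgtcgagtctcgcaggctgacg
The Pik3ap1 sequence held 23 CpG dinucleotides at 71.2% GC and 1 motif match, an E box, which was found in 6.02% of 32851 mouse promoters of the same length. The Inpp4b sequence held 19 CpG at 66% GC and 1 NF-Y site, present as its reverse complement ATTGG, a motif found in 33.8% of promoters. The Pik3r3 sequence held 23 CpG at 65.6% GC, a GC box (32.7% of promoters, read here as CCGCCC) and 2 NF-Y sites. The median promoter held 6 CpG at 52.4% GC, so all 3 lay above it in both measures. A GC box stood in the first listed promoter of each of the 7 other members and in neither the Pik3ap1 nor the Inpp4b sequence. Some members had further entries, and the third of Pik3cd and the second of Pik3r1 held no GC box. These are letter matches only and say nothing of binding.

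Levels are given as CPM, read counts scaled to a common library size after TMM normalisation, and differences as log2 of post-caerulein over untreated. Total counts per library were between 34783738 and 46744497, and 3 counts, the limit that a count of 0 allows, corresponded to 0.0631 to 0.0841 CPM. Whether replicates are separate mice or cultures is not labelled, and p-values therefore reflect only the spread among libraries, part of which may be technical. Untreated 1 and 2 were close to each other (SD of log2 differences over genes 0.218), as were post-caerulein 2 and 3 (0.168), against 0.447 or more for every other pair. On the first principal component, with 58.5% of the variance, untreated 3 and post-caerulein 4 lay at 55.8 and 45.4, against -51.2 and -48.4 for untreated 1 and 2. The authors' deposited table of fold changes was obtained again to within 3.2e-08 in log2 when untreated 3 and post-caerulein 4 formed a block of their own (the smaller block) beside the other 5 libraries (the larger block), and not with the group alone. No label says what the block stands for, so each member is given in a fit with the group as the only term, in a fit that adds the block, and within each block.

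Pik3ap1 and Inpp4b were the members whose groups did not overlap, both higher after caerulein, and Pik3r3 and Pik3cb were lower after caerulein in the larger block. The other 5 members differed by 0.36 or less on the log2 scale in both fits. With the group as the only term, the quasi-likelihood test of edgeR called 0 of the 9 members (Benjamini-Hochberg adjusted p under 0.05), beside 0% of all genes tested. At an unadjusted p under 0.05 it took 4 members, beside 9.5% of all genes, while DESeq2 called Inpp4b and Pik3ap1, beside 3.1% of all genes, and limma-voom called 0 members, beside 0%. With the block, edgeR called 3 members, beside 1.53% of all genes, namely Inpp4b and Pik3ap1 (0.651% of genes were called higher) and Pik3r3 (0.876% were called lower). No call among the members remained with the block when untreated 1, untreated 2, post-caerulein 2 or post-caerulein 3 was left out. Those fits called 0, 0, 29 and 3 of all genes, so nearly every call was lost in them. Without untreated 3 or without post-caerulein 4, 4 members were called, with Pik3cb added, beside 13.5% and 13% of all genes. In each of these fits the smaller block held a single library, which the block term takes up, so the difference rested on the larger block alone. Pik3ap1 was also not called with DESeq2's size factors or with no filter, and Pik3r3 not with upper quartile normalisation. Pik3r3 was not called without post-caerulein 1 either, in a fit that called 131 of all genes, Inpp4b and Pik3ap1 among them. The groups did not overlap for 2 members, beside 9.32% of all genes (4.67% with post-caerulein higher and 4.65% with it lower). Because this contrast was in view when the members were chosen, nothing is read from these counts. The median log2 difference over the 9 members was 0.09 without and 0.08 with the block, beside -0.02 and 0.00 over all genes tested.

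**Figure D1:**
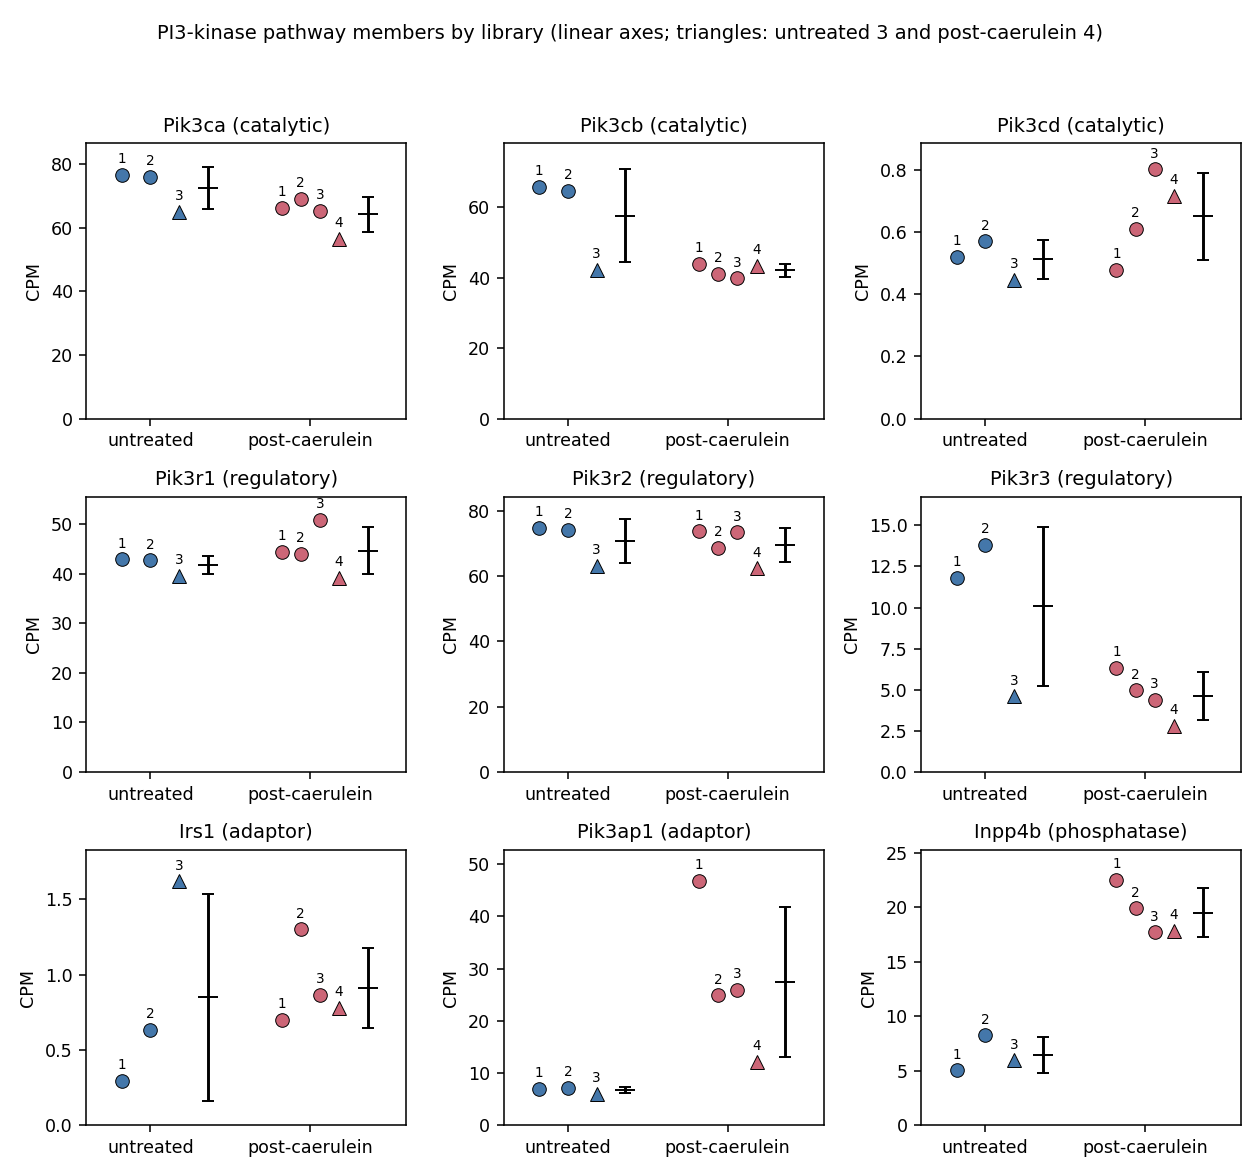
CPM of each member (linear vertical axes, 1 panel a gene) in the 3 untreated (blue) and 4 post-caerulein (red) libraries, numbered by replicate, with the group mean ± SD as black bars; triangles mark untreated 3 and post-caerulein 4. Pik3ap1 and Inpp4b are the panels in which every post-caerulein library lies above every untreated one, while in the Pik3cb and Pik3r3 panels untreated 3 lies with the post-caerulein libraries.

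Pik3ca and Pik3cb, the broadly expressed catalytic subunits, were both well detected, with at least 2363 and 1486 counts in every library, and Pik3cd, the catalytic subunit best known from leukocytes, was scarce. Pik3ca (chr3:32397671-32468486, GRCm38) was at 76.5, 75.9 and 64.9 CPM in untreated 1 to 3 and at 66.3, 69, 65.2 and 56.4 CPM in post-caerulein 1 to 4. Untreated 1 and 2 were above every post-caerulein library, untreated 3 was not, and post-caerulein 4 was the lowest of all. Its means were 72.4 ± 6.53 (SD, n = 3) and 64.2 ± 5.44 CPM (SD, n = 4), and its log2 difference was -0.17 ± 0.11 (SE) without and -0.19 ± 0.07 with the block.

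Pik3cb (chr9:99036654-99140087), whose product is also activated downstream of G protein-coupled receptors, was at 65.8, 64.6 and 42.3 CPM in untreated 1 to 3. The post-caerulein libraries lay close together, at 44, 41.2, 39.8 and 43.3 CPM. Untreated 3 therefore fell among the post-caerulein libraries, and the groups overlapped. The difference was -0.45 ± 0.16 without and -0.45 ± 0.14 with the block. The larger block by itself gave -0.65 and the pair of post-caerulein 4 and untreated 3 gave 0.03, so Pik3cb was lower in the larger block and level in that pair.

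Pik3cd (chr4:149649168-149701590) had 20 to 27 counts in each untreated library and 17 to 38 in each post-caerulein library. These counts gave 0.52, 0.569 and 0.445 CPM in untreated 1 to 3, and 0.477, 0.61, 0.801 and 0.715 CPM in post-caerulein 1 to 4. The groups overlapped, and for the lowest count, in post-caerulein 1, the exact 95% interval alone ran from 0.278 to 0.763 CPM (counting error only). The difference of 0.35 ± 0.30 was close in size to its SE, and no difference was detectable at this depth.

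The 3 regulatory subunits behaved unlike one another. Pik3r1 and Pik3r2, which encode the widely expressed regulatory subunits, differed little between groups, while Pik3r3, which encodes a shorter regulatory subunit, was lower after caerulein within each block. Pik3r1 (chr13:101680563-101768217) was at 42.9, 42.7 and 39.6 CPM in the untreated libraries and at 44.5, 44.1, 50.9 and 39.2 CPM in post-caerulein 1 to 4. The highest and the lowest Pik3r1 values were both from post-caerulein libraries. Its difference was 0.10 ± 0.11 without and 0.08 ± 0.09 with the block.

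Pik3r2 (chr8:70768176-70776713) was at 74.9, 74.3 and 63.1 CPM in untreated 1 to 3 and at 73.8, 68.7, 73.4 and 62.4 CPM in post-caerulein 1 to 4. The 2 lowest Pik3r2 values were those of untreated 3 and post-caerulein 4, the libraries of the smaller block. The group difference of Pik3r2 was -0.02 ± 0.11, smaller than its block difference of -0.22 (smaller minus larger block). Of its exon bases, 45 (1.42%) also belong to 6330537M06Rik on the opposite strand.

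Pik3r3 (chr4:116221661-116303056) was at 11.8, 13.8 and 4.61 CPM in untreated 1 to 3 and at 6.34, 4.97, 4.38 and 2.82 CPM in post-caerulein 1 to 4, from 134 to 653 counts. Untreated 3 lay between the post-caerulein values, so the groups overlapped, although within each block every post-caerulein library was below every untreated one. The group means were 10.1 ± 4.83 (SD, n = 3) and 4.63 ± 1.46 CPM (SD, n = 4). The log2 difference was -1.12 ± 0.41 without and -1.13 ± 0.20 with the block, -1.30 for the larger block alone, and -0.71 for post-caerulein 4 against untreated 3. The block difference of Pik3r3 itself, -1.16, was as large as the difference between the groups. Of the Pik3r3 exon bases, 1289 (24.5%) also belong to Gm49337, a gene model on the same strand that had 0 reads in all libraries. No source states how reads in shared bases were assigned, and the Pik3r3 counts are uncertain to that extent.

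Irs1 and Pik3ap1 encode adaptors that carry the binding motif for the regulatory subunits. IRS1 is phosphorylated by the insulin and IGF1 receptors, and PIK3AP1, also called BCAP, was described as an adaptor of B cells and also acts in other leukocytes. Pik3ap1 (chr19:41274218-41385070) was at 6.96, 7.13 and 6.05 CPM in untreated 1 to 3 and at 46.8, 24.9, 25.9 and 12.1 CPM in post-caerulein 1 to 4. All 4 post-caerulein libraries were above all 3 untreated ones, and the lowest, post-caerulein 4, was 1.7 times the highest untreated library. Post-caerulein values spread much more than untreated ones, at 27.4 ± 14.3 (SD, n = 4) against 6.71 ± 0.578 CPM (SD, n = 3), a ratio of means of 4.09. The log2 difference of Pik3ap1 was 2.03 ± 0.42 without and 1.85 ± 0.33 with the block. The larger block alone gave 2.14, and post-caerulein 4 against untreated 3 gave 1.00. These levels rested on 272 to 338 counts in each untreated and 577 to 1668 in each post-caerulein library.

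Irs1 (chr1:82233101-82291416) was scarce, at 12, 30 and 73 counts in the untreated and 25, 47, 41 and 37 counts in the post-caerulein libraries. In CPM it was at 0.297, 0.633 and 1.62 in untreated 1 to 3, against 0.701 to 1.3 over the post-caerulein libraries. Both the lowest and the highest Irs1 values were from untreated libraries. The difference was 0.09 ± 0.55 without and 0.36 ± 0.52 with the block, and the blocks went opposite ways, at 1.09 in the larger and -1.06 in the smaller. Irs1 shares 2822 exon bases (30.9%) with Gm9747 on the opposite strand, which had 0 reads in all libraries, and no source states whether counting used the strand.

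Inpp4b, the lipid 4-phosphatase gene, spans 785 kb at chr8:81342562-82127914. It was at 5.03, 8.25 and 5.96 CPM in untreated 1 to 3 and at 22.5, 19.9, 17.7 and 17.8 CPM in post-caerulein 1 to 4. Every post-caerulein library was at least 2.14 times the highest untreated one, and neither untreated 3 nor post-caerulein 4 stood apart from its group. The means were 6.41 ± 1.66 (SD, n = 3) and 19.5 ± 2.29 CPM (SD, n = 4), a ratio of 3.04. The log2 difference of Inpp4b was 1.6 ± 0.21 without and 1.59 ± 0.20 with the block. It was 1.63 in the larger block by itself and 1.57 for post-caerulein 4 against untreated 3, a smaller gap between blocks than for Pik3ap1 or Pik3r3. In the authors' deposited table, 8 of the 9 members were listed, and Inpp4b (1.59), Pik3ap1 (1.86) and Pik3r3 (-1.12) were the 3 with a false discovery rate under 0.05, beside 7.88% of the genes in that table.

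**Figure D2:**
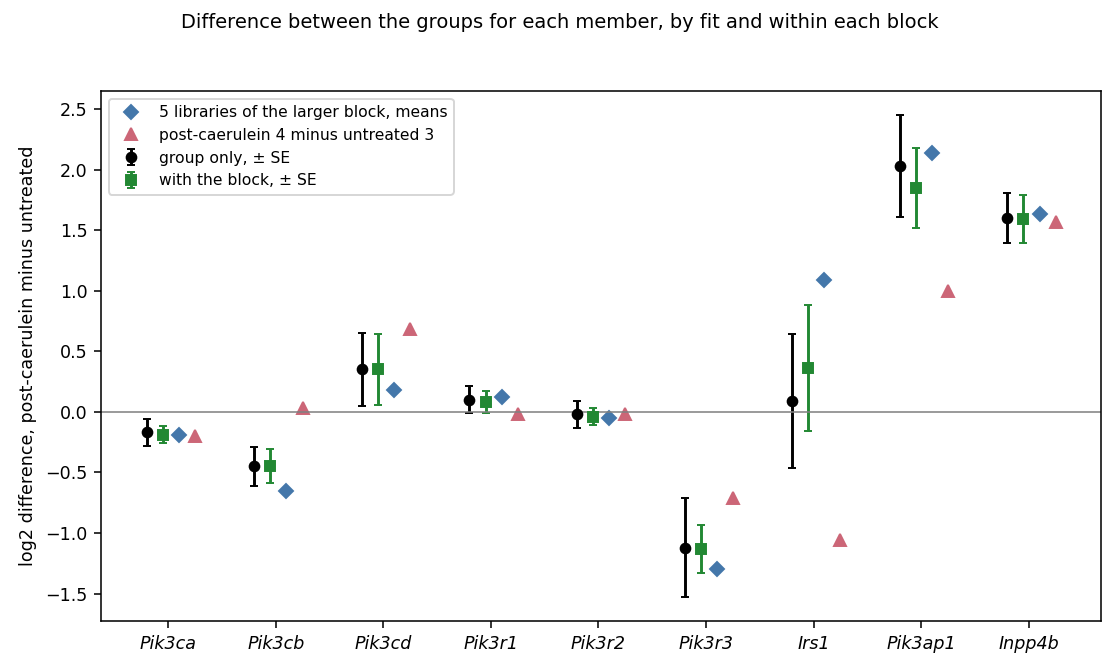
Log2 difference (vertical axis, post-caerulein minus untreated) of each member in the fit with the group as the only term (black circles, ± SE), in the fit with the block (green squares, ± SE), between group means within the 5 libraries of the larger block (blue diamonds) and between post-caerulein 4 and untreated 3 (red triangles). The 4 estimates for Inpp4b lie between 1.57 and 1.63, those for Pik3ap1 between 1.00 and 2.14, and those for Irs1, Pik3cb and Pik3r1 fall on both sides of 0.

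To set members beside one another, CPM was divided by the exon length in the count table, in kilobases. In untreated libraries Pik3r2 was the most abundant member per length, at 22.4 ± 2.09 CPM per kilobase (SD, n = 3). Pik3cb (8.89 ± 2.04) and Pik3ca (7.98 ± 0.72) followed and did not differ beyond their spread, then Pik3r1 (5.52 ± 0.245), Pik3ap1 (2.57 ± 0.221), Pik3r3 (1.92 ± 0.919) and Inpp4b (0.634 ± 0.164). The gap between Pik3ap1 and Pik3r3 was likewise smaller than the SD of Pik3r3. Pik3cd and Irs1 were lowest, at 0.0961 and 0.0931 CPM per kilobase. In post-caerulein libraries Pik3ap1 reached 10.5 ± 5.49 CPM per kilobase (SD, n = 4), within its own spread of Pik3ca (7.08 ± 0.6), Pik3cb (6.5 ± 0.296) and Pik3r1 (5.91 ± 0.635). Inpp4b reached 1.92 ± 0.226 and Pik3r3 was at 0.88 ± 0.277 on this scale, the reverse of their order in untreated libraries. The order of members depends on the length used. The median annotated transcript is 701 bases for Pik3r1 and 764.5 for Pik3r2, far shorter than their 7561 and 3165 exon bases. For Pik3ap1 it is 3586.5 bases, above its 2615 exon bases, because it was read from a later version of the gene model. The medians are therefore no better measure of length and show the dependence only. With the median annotated transcript length, Pik3r2 (92.6 ± 8.69 CPM per kilobase in untreated libraries) and Pik3r1 (59.5 ± 2.64) led, Pik3r3 (5.5 ± 2.64) lay above Inpp4b (2.13 ± 0.551), and Inpp4b did not differ from Pik3ap1 (1.87 ± 0.162) beyond its spread.

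The most abundant class IA subunits held similar shares in both groups, and the shares of the scarcer Pik3cd and Pik3r3 differed more. Pik3cb held 52% ± 3.91 (SD, n = 3) of the summed catalytic level per length in untreated and 47.5% ± 2.78 (SD, n = 4) in post-caerulein libraries, Pik3ca held 47.5% and 51.6%, and Pik3cd held 0.57% and 0.898%. The Pik3cd share did not overlap between groups (0.523% to 0.607% against 0.631% to 1.12%), on 17 to 38 counts a library. The gap is small beside counting error, since the 95% interval of post-caerulein 1 (0.278 to 0.763 CPM) held every untreated Pik3cd level. The catalytic sum below the share was also lower after caerulein (17 and 13.7 CPM per kilobase). Of all genes taken singly, 9.32% did not overlap, a figure for CPM that is no background for shares. Among the regulatory subunits, Pik3r2 held 75.1% and 76.5%, Pik3r1 18.6% and 20.5%, and Pik3r3 6.25% ± 2.56 and 3.02% ± 0.798. The shares depend on the length used. With the median annotated transcript length in place of all exon bases, Pik3r2 held 58.7% and 57.9%, Pik3r1 37.9% and 40.5%, and Pik3r3 3.41% and 1.59%. Pik3cd then held 1.13% and 1.77% of the catalytic level.

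The summed regulatory over the summed catalytic level per length was 1.69, 1.72 and 1.89 in untreated 1 to 3 and 2.14, 2.02, 2.28 and 1.95 in post-caerulein 1 to 4. The ratio did not overlap between groups. Of all genes taken singly 9.32% did not, but that share is no background for a ratio of summed levels. Its means were 1.77 ± 0.109 (SD, n = 3) and 2.1 ± 0.145 (SD, n = 4), with the regulatory sum at 29.8 ± 3.23 and 28.8 ± 2.44 CPM per kilobase and the catalytic sum at 17 ± 2.77 and 13.7 ± 0.543. The 2 libraries of the smaller block, untreated 3 and post-caerulein 4, were the closest across the groups, at 1.89 and 1.95. With the median transcript length the ratio was 6.57 to 7.57 in untreated and 7.85 to 9.28 in post-caerulein libraries. That length was chosen for this ratio after the data were seen. The short medians of Pik3r1 and Pik3r2 (701 and 764.5 bases) enter these larger values. The size of the ratio therefore depends on the length, while its order between groups was the same with both.

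**Figure D3:**
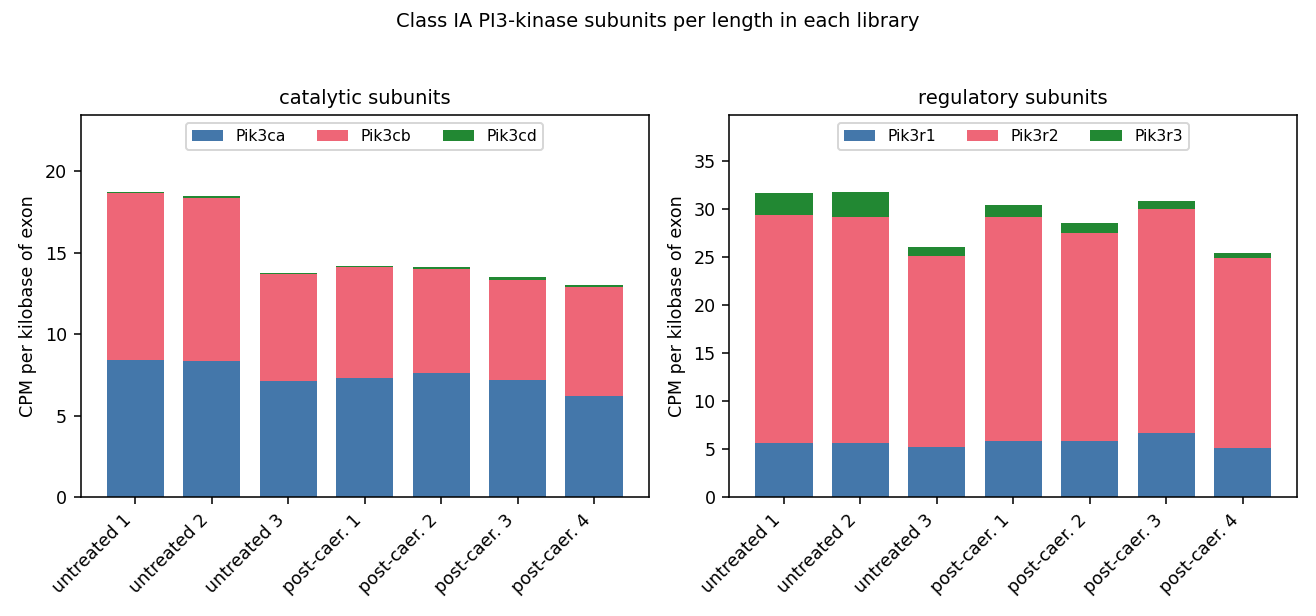
Stacked CPM per kilobase of exon (vertical axis, from 0) of the 3 catalytic (left) and 3 regulatory (right) class IA subunits in each of the 7 libraries. The catalytic sum is 18.7 and 18.4 in untreated 1 and 2 and between 13 and 14.2 in the other 5 libraries, and Pik3r2 makes up most of the regulatory sum everywhere.

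Around the members, 115 other genes of the pathway were listed by role, and 104 of them were tested. With the group as the only term, edgeR called 0 of the 104 after adjustment over all genes, 19 had an unadjusted p under 0.05 (9.5% of all genes did), limma-voom called 0, and DESeq2 called 4, namely Inppl1, Irs2, Kit and Sgk2 (3.1% of all genes). With the block, edgeR called 5 genes, beside 1.53% of all genes. Of these 1 rose, the mTOR inhibitor gene Deptor, and 4 fell, namely the receptor gene Kit, the mTORC1 inhibitor gene Ddit4, and the FOXO target genes Ccng2 and Fbxo32. The median log2 difference over the 104 genes was -0.08 in both fits, beside -0.02 and 0.00 over all genes tested, with 37 genes positive and 67 negative without the block. In that edgeR fit none was called in the other 9 role lists, which held the remaining class I genes, the class II and III kinases, the other adaptors and phosphatases, the AKT group, the FOXO and GSK3 proteins, the PIP3-binding effectors and the PIP2 synthesis genes. DESeq2 with the block called 24 of the 104 (1389 of all 16438 genes), among them genes of these lists. The deposited likelihood ratio results also had genes of these lists under a false discovery rate of 0.05, beside 7.88% of all genes listed there. They were Irs2, Gab2, Foxo1, Foxo3, Pik3c2a, Pik3c2g, Sgk1, Sgk2, Sgk3 and Vav2. From the other lists, Fgfr2, Pdk4 and the 5 genes called by edgeR with the block were under 0.05 there.

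Deptor was at 139, 115 and 83.3 CPM in untreated 1 to 3 and at 212, 192, 219 and 114 CPM in post-caerulein 1 to 4, a log2 difference of 0.63 ± 0.11 with the block (edgeR, adjusted p = 0.0445). Its groups overlapped through post-caerulein 4. Ddit4 was at 560, 531 and 148 CPM in untreated 1 to 3 and at 257, 278, 261 and 72.4 CPM in post-caerulein 1 to 4. Within each block the post-caerulein libraries were the lower ones, and the difference was -1.04 ± 0.08 with the block (edgeR, adjusted p = 0.0074). Kit was at 78.3 and 74.1 CPM in untreated 1 and 2 and at 3.94 CPM or less in the other 5 libraries, untreated 3 (0.645 CPM) included. Its difference with the block was -4.15 ± 0.59 (edgeR, adjusted p = 0.0304). Fbxo32 (-0.75 ± 0.12, adjusted p = 0.0351) and Ccng2 (-0.86 ± 0.15, adjusted p = 0.0439) were also higher in untreated 1 and 2 than in any other library. These calls changed when single libraries were left out, as did the calls over all genes. Without untreated 1 the edgeR adjusted p ranged from 0.12 to 0.271 over the 5 genes, and without untreated 2 from 0.0947 to 0.273. Without post-caerulein 3 it ranged from 0.0746 to 0.144, so none was called. Those fits called 0, 0 and 3 of all genes. Without post-caerulein 1 or 2, Ddit4 alone of the 5 was called (edgeR, adjusted p = 0.0275 and 0.0434), in fits that called 131 and 29 of all genes.

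The close relatives of the members give their setting. Irs2, the other main insulin receptor substrate, was far more abundant per length than Irs1, at 58.9 ± 1.92 CPM per kilobase in untreated (SD, n = 3) and 41.6 ± 4.82 in post-caerulein libraries (SD, n = 4). Its 3 untreated libraries, at 365 to 387 CPM, were above its 4 post-caerulein libraries, at 218 to 287 CPM. The log2 difference of -0.50 ± 0.12 with the block had an adjusted p of 0.0826 in the quasi-likelihood test of edgeR. In the deposited likelihood ratio results the false discovery rate of Irs2 was 0.0338, and DESeq2 called Irs2 with and without the block. Inpp4a, the paralogue of Inpp4b named here for comparison, was at 3.13 ± 1.24 and 3.24 ± 0.177 CPM per kilobase, above Inpp4b in untreated libraries on that scale. Its log2 difference was 0.16 ± 0.17 with the block (edgeR, adjusted p = 0.708). Inpp5d, which encodes the SHIP1 phosphatase of blood cells, was at 0.111 CPM or less in every library and was not tested. Pik3cg, a catalytic subunit known mainly from leukocytes, was at 0.652 CPM or less, and Pik3ip1, an inhibitor of PI3-kinase, spread from 49.8 to 122 CPM over untreated and from 28.3 to 68.8 CPM over post-caerulein libraries.

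Upstream and downstream, the quasi-likelihood test of edgeR on all 7 libraries called no difference for the insulin and IGF1 receptors, the central kinases or Foxo1. This held with and without the block. In the deposited likelihood ratio results Foxo1 had a false discovery rate of 0.0172 and Igf1r of 0.186. Of all genes listed there, 7.88% were under 0.05. DESeq2 with the block called Igf1r and Foxo1. With the block, edgeR called them without untreated 3 or without post-caerulein 4, beside 13.5% and 13% of all genes. In both fits the difference rested on the larger block alone. Insr had group means of 118 CPM (untreated) and 105 CPM (post-caerulein; log2 difference -0.20 ± 0.10 with the block), and Igf1r 190 and 234 CPM (0.33 ± 0.10). Pdpk1, encoding PDK1, was at 126 and 121 CPM, and the mTOR kinase gene Mtor at 97 and 87.8 CPM. Of the AKT genes, Akt1 was at 236 and 263 CPM and Akt2 at 69.3 and 72.1 CPM. Foxo1, a transcription factor that AKT keeps out of the nucleus, was at 101 ± 45.7 and 66.4 ± 15 CPM. The lowest adjusted p of the quasi-likelihood test among these 7 genes was 0.137, for Igf1r.

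**Figure D4:**
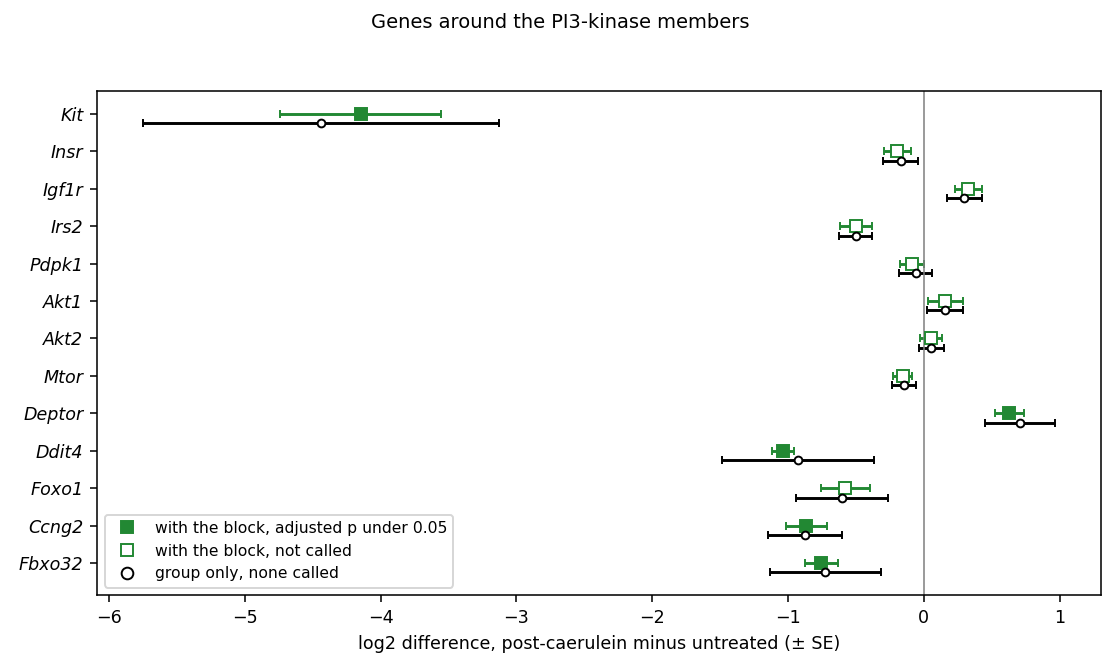
Log2 difference (horizontal axis, post-caerulein minus untreated, ± SE) of 13 pathway genes outside the members, in the fit with the block (green squares, filled where the adjusted p was under 0.05) and in the fit with the group only (black circles, none called). Kit, Deptor, Ddit4, Ccng2 and Fbxo32 are filled, and each of these 5 has a shorter error bar with the block than without it.

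For each member the 3 genes whose log2 CPM followed it most closely over the 7 libraries were taken from tested genes with an average log2 CPM of at least 1 (10985 candidates for most members). These are the highest of many correlations, over libraries that include the 2 close pairs, and are descriptions only. Pik3ap1 was followed by Bicc1 (r = 0.994), Map2 (0.993) and Dcbld1 (0.991). Bicc1, which encodes an RNA-binding protein, had means of 44.4 ± 2.36 CPM without and 126 ± 45.4 CPM after caerulein, and Map2, a microtubule-associated protein gene, at 10.3 ± 1.43 and 37.8 ± 14.8 CPM. Inpp4b was followed by Cyp1a1 (r = 0.995), Mapk11 (0.986) and Cachd1 (0.976). Cyp1a1, a cytochrome P450 gene, was at 1.98 ± 0.241 and 4.24 ± 0.419 CPM, and Cachd1 at 7.91 ± 1.27 and 20.6 ± 3.4 CPM. Pik3r3 was followed by Atf7 (r = 0.995), Abcd4 (0.985) and the keratin gene Krt13 (0.982), which was at 21.8 ± 19.1 and 0.466 ± 0.386 CPM. For Pik3ca the closest gene was Rsbn1 (0.99), for Pik3cb Top2b (0.99), for Pik3r2 Trim29 (0.99), for Irs1 Wdr78 (0.974), for Pik3r1 Itga7 (0.94) and for Pik3cd Cdk20 (0.927). Next came Slc25a51 and Yap1 for Pik3ca, H2-Q6 and Id3 for Pik3cb, Frat2 and Srebf1 for Pik3r2, Ccdc159 and Pygm for Irs1, Syt12 and Chrd for Pik3r1, and Wdr25 and Mageh1 for Pik3cd, with r from 0.989 down to 0.883.

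Several members are best known from other cell types, so markers of those cells were read in the same libraries. All 10 ductal markers were tested, with a sum of 13600 to 15500 CPM without and 14300 to 21400 CPM after caerulein. Krt19, a ductal keratin, ranged from 2350 to 3020 and from 2300 to 4470 CPM. Krt8 had the highest ductal value, at 2840 to 3360 and 3320 to 6290 CPM. The keratin gene Krt7 was lower in every post-caerulein library (means 2470 and 1900 CPM) and the cadherin gene Cdh1 higher (1790 and 2310 CPM). Spp1 (205 and 493 CPM) and Sox9 (28.5 and 43.5 CPM) had higher means after caerulein with overlap. In the deposited likelihood ratio results their false discovery rates were 0.0144 and 0.0401, against 0.31 for Krt7 and 0.314 for Cdh1. The chloride channel gene Cftr was at 39.1 and 38.5 CPM in untreated 1 and 2 and at 4.76 CPM or less in the other 5 libraries. Of 15 leukocyte markers, 12 were below 1 CPM in every library. The defining leukocyte gene Ptprc reached 0.105 CPM at most and the B cell gene Ms4a1 was at 0 throughout, in the same libraries in which Pik3ap1 was at 6.05 to 46.8 CPM. The summed leukocyte level was 21.8 to 99.3 CPM without and 14.1 to 38 CPM after caerulein, nearly all of it Cd68, a lysosomal protein gene. Leukocyte markers at low levels went both ways. Means were lower after caerulein for Fcer1g (0.111 and 0.0543 CPM), Laptm5 (0.0471 and 0.0122 CPM) and Cd79b (0.0532 and 0.028 CPM), among others. They were higher for Csf1r, Cd52 and Lyz2, among others. Of these named markers, only Csf1r did not overlap between the groups. Csf1r was at 0.421 to 0.675 CPM in untreated and 0.925 to 1.2 CPM in post-caerulein libraries, Cd52 at 0.0743 CPM or less in untreated libraries and at 0.897, 1.05, 0.822 and 0 CPM in post-caerulein 1 to 4, and Lyz2 at 0.0222 CPM or less against 0.021 to 0.337 CPM. Summed acinar markers were at 1.48 to 2.1 CPM without and 3.11 to 12.1 CPM after caerulein, with Amy2a2 at 0 throughout. Ctrb1, the acinar marker with the highest value, was at 0.0422 to 0.222 and 0.971 to 7.32 CPM, without overlap. Its log2 difference was 5.59 ± 0.89 with the block (edgeR, adjusted p = 0.0378). Summed islet markers were at 0.099 to 0.601 and 0.589 to 5.94 CPM, with Ppy at 0 and Chga highest, at 0.0211 to 0.289 and 0.21 to 2.11 CPM. The means of Csf1r, Cd52 and Lyz2 were higher, and the acinar and islet sums reached higher, in the same group as Pik3ap1 and Inpp4b. The part of these low values in those differences was not tested. Summed fibroblast markers were at 0.19 to 21.8 and 3.31 to 7.69 CPM, with Col1a1 highest in untreated 3 (8.7 CPM). Summed endothelial markers were at 2.02 to 3.14 and 1.12 to 2.19 CPM, with Pecam1 at 0.42 CPM or less. Vwf, the endothelial marker with the highest value, was lower after caerulein without overlap, at 0.779 to 2.45 and 0.28 to 0.695 CPM. Summed tuft cell markers were at 51.5 to 63.8 and 47.1 to 106 CPM, mostly Ptgs1. In RNA from whole cultures, fewer cells of a type and less RNA per cell cannot be told apart.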

How the data were processed

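Polyadenylated RNA from mouse pancreatic spheroids was sequenced in 7 libraries, grouped by the treatment label. The authors deposited raw read counts per gene with exon positions, per the file headers. Reads were assigned with featureCounts 0.6.1 on GRCm38 (mm10), per the submitters' processing notes. Which aligner was used, and whether counting used the strand, is not given in the sources used here. Per gene, the authors' deposited table holds a log2 fold change, an average log2 CPM, a likelihood ratio score, a p-value and a false discovery rate, per the file headers. The submitters' processing notes name edgeR 3.2.2.

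From these counts, genes with too few reads were removed by filterByExpr (minimum count 10 and total 15), libraries were scaled by TMM, and a robust two-sided quasi-likelihood test was run in edgeR 4.0.16. P-values were adjusted by Benjamini-Hochberg over 16438 genes, and those under 0.05 were called. The first fit had the group as its only term, and the second added the block of untreated 3 and post-caerulein 4, with which a likelihood ratio fit gave all 1023 calls of the deposited table. The members, gene lists, block and tests were chosen with earlier results of these data known. Named genes were the 9 members, every listed pathway gene called with the block, 13 pathway genes always given (some not reported here), the 3 most correlated genes for each member, and the leading and defining markers. Fgfr2, Foxo3, Gab2, Pdk4, Pik3c2a, Pik3c2g, Sgk1, Sgk3 and Vav2 were named for their place in the deposited results, after these were seen. Inpp4a, Inppl1, Sgk2 and the ductal markers Krt7, Cdh1, Cftr, Sox9 and Spp1 were named after their values were seen. So were the markers Csf1r, Cd52, Lyz2, Fcer1g, Laptm5, Cd79b, Ms4a1, Amy2a2 and Ppy. Intervals are exact binomial (95%) and, like the limit for a count of 0, cover counting error only. The procedure was tested on simulated counts of independent libraries, with the same spread setting for every gene. These held no close pairs, and no block where the fit had none, so they do not show how the tests behave on these libraries. Alternatives were other normalisations and filters, DESeq2 1.42.0, limma-voom (limma 3.58.1), no robust estimation, each library left out, the replicate number as a block, single blocks and transcript lengths. Summing close pairs of libraries was added after the data were seen. Promoters came from RefSeq. R 4.3.3 and matplotlib 3.10.9 were used.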

Additional observations from a re-analysis of the deposited data

Results flagged for a closer look

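Post-caerulein 4 stood apart from the other post-caerulein libraries in 2 of 25 groups of 4 that were checked for a library far from the rest, a check that chance passes in about 1 of 20 groups. Mtor, the mTOR kinase gene, was at 80.7 CPM there against 89.7 to 90.6 CPM in the other 3. Ddit4 was at 72.4 CPM against 257 to 278 CPM, and in the untreated group its lowest value was likewise in the library of the same block, untreated 3, at 148 CPM. Among the 9 members no post-caerulein library was set apart by this check.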

How the results depend on the processing

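No member or pathway result turned its sign while called. The log2 difference of Pik3ap1 stayed between 1.00 and 2.29 without and 1.59 and 2.22 with the block, that of Inpp4b between 1.45 and 1.82 and between 1.39 and 1.82, and that of Pik3r3 between -1.45 and -0.71 and between -1.27 and -1. Without the block 0 genes were called, against 23 with no filter, 509 with DESeq2, 2247 in the larger block alone, and 0 to 1149 when 1 library was left out (57 without post-caerulein 4, 1149 without untreated 3). With the block 251 genes were called, against 602 with no filter, 138 with at least 50 counts in 3 libraries, 1389 with DESeq2, 0 with the close pairs summed, and 0 to 2267 when 1 library was left out. The members called with the block numbered 3, and 1 with at least 50 counts (Inpp4b), 0 with the close pairs summed, and 0 to 4 when 1 library was left out. The pathway genes called with the block numbered 5, and 13 with no filter, 24 with DESeq2, 0 with the close pairs summed, and 0 to 22 when 1 library was left out. Fewer libraries enter the summed and left-out fits. The causes of the other changes were not tested. Between post-caerulein 4 and untreated 3 the difference of Pik3cb was 0.03 and that of Irs1 -1.06, where a single library stands for each group.

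Fitting the replicate number as a block called 0 genes. Same-numbered libraries deviated from their group means with correlations of 0.43, 0.217 and -0.285, and so the numbers were not taken to pair the samples. Pik3cd, at 17 to 38 counts a library, is limited by depth. Irs1, at 12 to 73 counts, spread between libraries beyond counting error, with exact 95% intervals of 0.153 to 0.519 CPM in untreated 1 and 1.27 to 2.04 CPM in untreated 3.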
